A study of Mus musculus with 12 samples.

Results

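The TRIM (tripartite motif) family of ubiquitin ligases was followed in cultured mouse macrophages. Its members were taken by name: genes whose symbol is Trim followed by a number, with a mean of at least 10 counts over the 12 libraries, which gave 38 of the 68 such symbols among 35275 genes. Of the 30 symbols left out, 7 had 0 counts in every library, and the highest mean was the 9.42 counts of Trim66. RNA was sequenced from bone marrow-derived macrophages (BMDMs) of wildtype mice, 4 libraries in each of 3 groups. All groups were grown for 6 days with M-CSF (20 ng/ml), IL-4 (20 ng/ml) and IL-10 (10 ng/ml), a mix that pushes macrophages towards the alternatively activated (M2) state. The control group received DMSO, the solvent, for those 6 days, the second group olaparib, an inhibitor of the poly(ADP-ribose) polymerases PARP1 and PARP2, and the third methyl-nicotinamide (MNA), a derivative of nicotinamide and so of NAD metabolism. The study's methods give the marrow donors as female or male mice of 6 to 10 weeks, and 4 donors stand behind the RNA libraries. The strain of those donors and the doses of olaparib and MNA for these cultures are not given in the sources used here. The comparisons ask which TRIM genes each compound changed against DMSO and where the compounds differed from each other.

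TRIM proteins share an amino-terminal RING domain, which passes ubiquitin from an E2 enzyme to a substrate, followed by B-box and coiled-coil domains through which they assemble. A few, such as TRIM14, TRIM16, TRIM29 and TRIM44, lack the RING and act as adaptors or by other means. The carboxy-terminal domain differs between members and sets what each binds: a SPRY domain in most, a PHD finger with a bromodomain in the nuclear cofactors TRIM24, TRIM28 and TRIM33, and an NHL domain in TRIM2, TRIM3 and TRIM32. In macrophages the family is best known for tuning innate sensing, since several members add ubiquitin to sensors of foreign RNA and DNA or to their adaptors, and many TRIM genes are themselves induced by interferon.

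Each library held 21146291 to 31446849 counts, and all 38 members passed the filter on low counts with 12849 genes in all. The macrophage markers Lyz2, Csf1r, Cd68 and Itgam stood at 361 CPM or more in every library, while Fcgr1 was low, at 0.116 to 2.30 CPM (CPM, the counts of a gene scaled to a common library total after TMM normalisation). The summed level of the 12 macrophage markers ran from 37040 to 57580 CPM in the DMSO libraries, from 27310 to 40560 with olaparib and from 6566 to 8778 in 3 of the MNA libraries. The M2 gene Chil3 was most of that sum in the DMSO and olaparib libraries, at 30410 to 50790 and 17070 to 27250 CPM, and was as low as 547 CPM under MNA, where it was not called. With olaparib Chil3 was not called either, while Adgre1, Itgam, Mertk and Lyz2 were called up and Cd68 down. The median log2 fold change of the 12 markers with olaparib was 0.41. Under MNA the M2 genes Mrc1 and Retnla were called down, and Csf1r and Cd14 were called up. In MNA replicate 2 the macrophage marker sum was 35360 CPM, and in a principal component analysis of all tested genes this library lay among the DMSO libraries. Without this library the M2 genes Chil3 and Arg1 were called down with MNA, at log2 fold changes of -5.66 and -5.60. With it their values were -2.18 and -2.49, and neither was called. Across the family, MNA replicate 2 was within the DMSO range for 27 of 38 members and nearer to the DMSO mean than to that of the other MNA libraries for 33, and the count of members called in each comparison is also given without it. Of the 8 cell type lists checked, neutrophil markers summed to 6.22 to 20.7 CPM with DMSO, 58.5 to 72.7 with olaparib and 5.62 to 84.7 with MNA. The olaparib sum was nearly all Mmp8 (mean 64.7 CPM, 6.17 with DMSO), the only neutrophil marker called there, while S100a9 and Ngp averaged 0.0371 and 0.0284 CPM. T and NK cell markers summed to 4.55 to 8.34, 13.6 to 25.7 and 6.95 to 48.9. The highest means were Klrb1c at 13.3 CPM with olaparib and Gzma at 26.2 with MNA. With olaparib Klrb1c, Cd2 and Cd3e were called up and Lck down. With MNA Gzma, Nkg7 and Cd3e were called up and Klrb1c down. B cell markers summed to 16.1 to 19.7, 27.6 to 34.4 and 6.76 to 15.5, most of it Cd22, which was called down with MNA while Cd79a, Cd79b and Ms4a1 were called up. Dendritic cell markers summed to 40.7 to 49.97, 53.8 to 63.8 and 47.2 to 69.2. Batf3 and Ccr7 were called up with each compound, and Xcr1 was called down with olaparib. Basophil and mast cell markers summed to at most 10.1 CPM in any library and stromal markers to at most 4.77. Erythroid markers summed to at most 4.22 CPM with DMSO, 0.799 with olaparib and 57.6 with MNA. Hba-a1 reached 48.3 CPM in MNA replicate 4, the library where S100a9 and Ngp also peaked, and Hba-a2 was at 0 in all libraries. The part of these cell types in the results was not tested, and in bulk RNA fewer cells of a type and less RNA per cell cannot be told apart.

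The level of the family spanned 3 orders of magnitude when counts were divided by exon length. In the DMSO libraries Trim35, whose product binds pyruvate kinase M2, was the highest at 67.5 CPM per kb of exon (range over libraries 61.8 to 71.6). Trim25, which activates the RNA sensor RIG-I, followed at 37.1 (36.5 to 38.2) beside the corepressor gene Trim28 at 36.9 with an overlapping range. Trim8 stood at 29.0 and Trim44 at 20.7 CPM per kb, each apart from its neighbours. The next level was shared by Trim30a at 12.1, Trim41 at 12.1 and Trim11 at 11.4, with overlapping ranges. At the low end were Trim7 at 0.149, Trim30d at 0.107 and Trim6 at 0.0574 CPM per kb. The 38 members together took 0.150% to 0.159% of the counts in the DMSO libraries, 0.133% to 0.140% with olaparib and 0.146% to 0.160% with MNA.

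**Figure D1:**
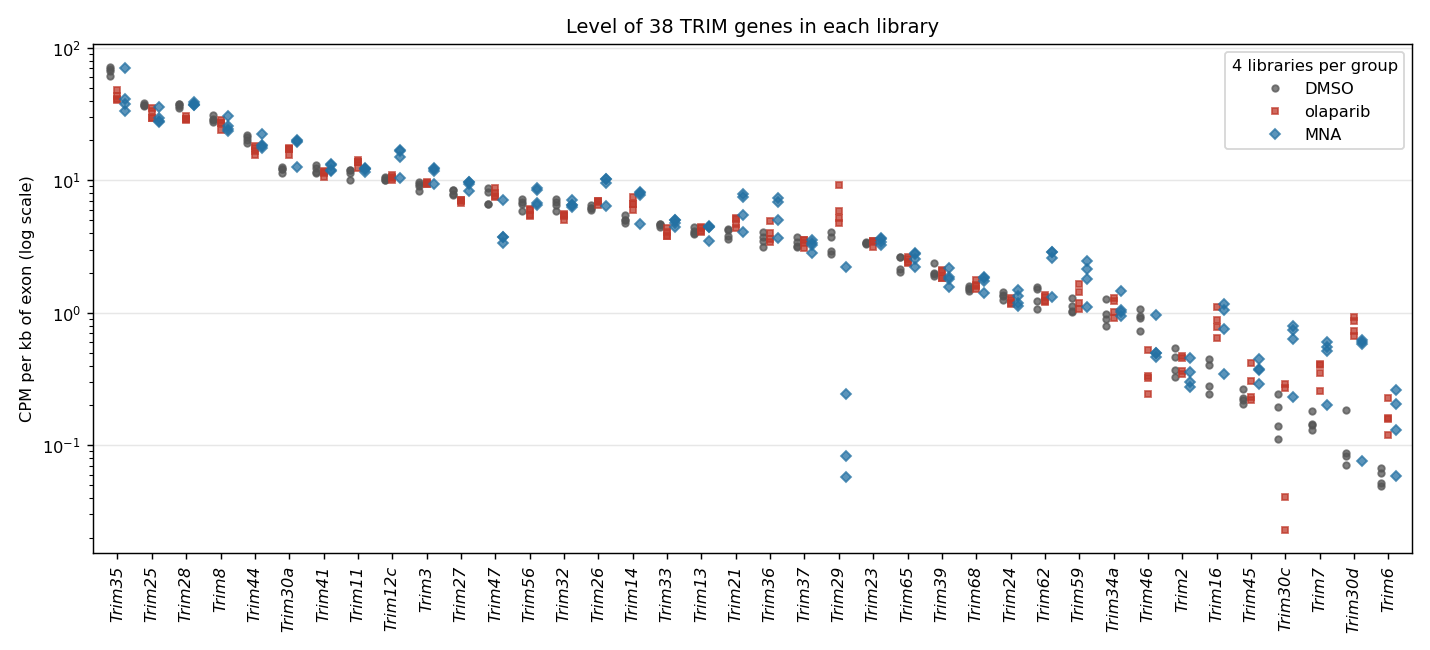
Level of each of the 38 TRIM genes in each library, in CPM per kb of exon on a log axis, ordered by the DMSO mean, with 1 point per library and 4 libraries per group. Trim35 leads at 67.5 CPM per kb in DMSO and Trim6 ends the row at 0.0574; the widest spread within a group is that of Trim29 under MNA.

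Olaparib raised 6 TRIM genes and lowered 7. The members called up were Trim30d, Trim7, Trim30a, Trim16, Trim11 and Trim6, all with a SPRY domain, and those called down were Trim28, Trim46, Trim32, Trim27, Trim44, Trim35 and Trim33. Calls rest on edgeR's quasi-likelihood test fitted to all genes and libraries, at an adjusted p (Benjamini-Hochberg) below 0.05, and since the labels do not tie each library of a group to its own mouse or culture, p measures only the spread between these libraries, which may be technical. The calls were 15.8% of members up and 18.4% down, beside 14.3% up and 12.8% down of all tested genes, so the share of members that moved was close to that of all genes. Trim6, among the calls up, reached the mean of 10 counts that made it a member only through treated libraries. The groups did not overlap for 10 members that were higher and 8 that were lower with olaparib, against 20.7% and 20.3% of all genes. The median log2 fold change was 0.03 over the members and 0.00 over all genes. Without MNA replicate 2, which enters the shared estimate of spread, 9 members were called up and 9 down (22.5% and 21.2% of all genes), and Trim14, Trim26 and Trim29 were added to the genes called up and Trim25 and Trim56 to those called down.

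**Figure D2:**
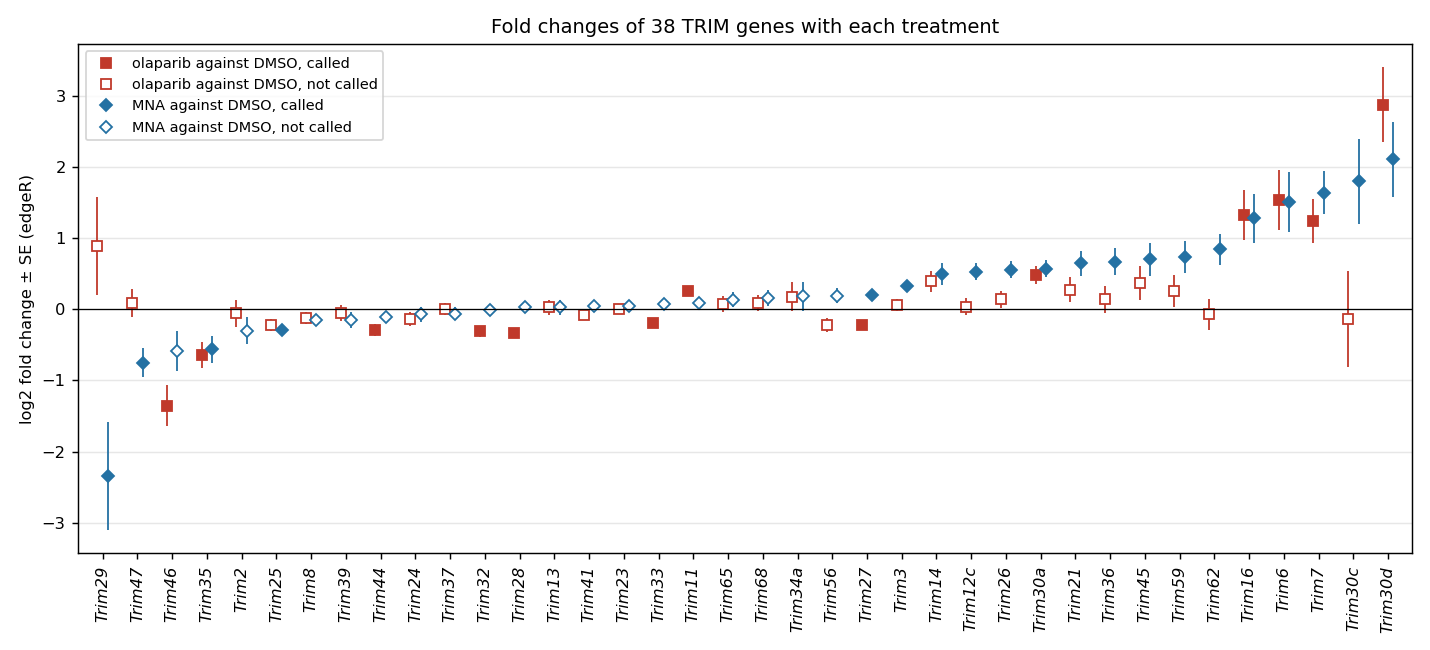
Log2 fold change (± SE from edgeR) of each TRIM gene with olaparib (red squares) and with MNA (blue diamonds), each against the same 4 DMSO libraries and ordered by the MNA value. Filled symbols passed an adjusted p of 0.05; Trim29 has the lowest MNA value at -2.34 and Trim30d the highest olaparib value at 2.87.

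The largest rise was that of Trim30d, which belongs with Trim30a and Trim30c to a mouse group in a cluster of related TRIM genes on chromosome 7 that runs from Trim6 through Trim34a, Trim12c, Trim30c and Trim30a to Trim30d (GRCm38, chr7:104218793-104507849). Trim30d (chr7:104470014-104507849, minus strand) was read at 0.328, 0.310, 0.268 and 0.698 CPM in the DMSO libraries, 2.72, 3.26, 2.52 and 3.52 with olaparib and 2.26, 0.287, 2.35 and 2.17 with MNA, in order of replicate here and below. All olaparib libraries stood well above all DMSO libraries, and MNA replicate 2 lay with DMSO while the other MNA libraries did not. The DMSO libraries held only 7, 9, 8 and 22 counts of Trim30d and MNA replicate 2 held 8, so the size of the rise is uncertain. The log2 fold change was 2.87 ± 0.53 (adjusted p = 0.00299) with olaparib and 2.10 ± 0.53 (adjusted p = 0.02) with MNA. Trim30a (chr7:104409025-104465193, minus strand), whose product degrades the signalling adaptors TAB2 and TAB3 and so damps Toll-like receptor signals, was far more abundant, at 49.8, 47.0, 50.3 and 52.0 CPM in the DMSO libraries, 64.1, 71.3, 72.2 and 70.4 with olaparib and 82.9, 51.5, 80.2 and 81.4 with MNA. Its olaparib libraries were again all above DMSO, as were MNA replicates 1, 3 and 4. The rise was smaller, at 0.48 ± 0.12 (adjusted p = 0.0153) with olaparib and 0.57 ± 0.12 (adjusted p = 0.0151) with MNA. Between 8.5% and 9.2% of the 31-base words in the transcripts of Trim30a and Trim30d occur in the other gene, so a small share of their reads could not be assigned by sequence.

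Part of the promoter is shown for 4 members, to set genes of the family that hold an interferon-type element near the start site side by side. Interferon-stimulated response elements were searched as GAAANNGAAA on either strand in the RefSeq promoters of GRCm38.p6, 250 bases before to 50 after each start. Capitals mark the match, and each line reads 5′ to 3′ on the strand of the gene. Trim30d, Trim30a and Trim26 are among the 6 members with the smallest p against DMSO, and Trim12c, from the same cluster, was chosen after its values were seen.
Trim30d (chr7:104507856-104507915, minus strand): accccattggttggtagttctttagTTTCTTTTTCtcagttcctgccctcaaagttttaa
Trim30a (chr7:104465195-104465254, minus strand): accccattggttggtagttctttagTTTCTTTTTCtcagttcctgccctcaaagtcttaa
Trim12c (chr7:104353344-104353403, minus strand): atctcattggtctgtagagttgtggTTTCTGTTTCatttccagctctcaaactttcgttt
Trim26 (chr17:36836961-36837026, plus strand): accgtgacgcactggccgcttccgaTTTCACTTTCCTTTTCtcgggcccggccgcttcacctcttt
Lined up on the match, the Trim30a and Trim30d promoters shown were equal at 89 of the 90 bases compared around it. The match began 36 and 41 bases before the start. A second RefSeq promoter of Trim30a had its match at base 3 after the start and was equal to that of Trim30d at 63 of 88 bases. The match began 29 bases before the start in Trim12c and 160 before in Trim26, and at base 11 of the transcript in Trim34a and base 14 in Trim21. In Trim21 and Trim26, 2 overlapping matches follow each other. RefSeq held a promoter for 28 of the 38 members, and 7 of the 28 had a match, Trim2 included, against 3.99% of the 27025 genes with a promoter there. Of those 7, 2 were called up with olaparib and 5 with MNA, and of the 21 members without a match 2 and 7. Among all tested genes the share called up was 15.4% with a match and 14.5% without for olaparib, and 22.5% and 16.3% for MNA. A match describes the letters of the window and does not show that a factor binds there.

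The other genes called up with olaparib were Trim6, Trim7 and Trim16, of low abundance, and Trim11. Trim6, also of the chromosome 7 cluster, builds free ubiquitin chains that activate the kinase IKKε, and it was read at 0.328, 0.241, 0.302 and 0.254 CPM in the DMSO libraries, 0.777, 0.786, 0.589 and 1.11 with olaparib and 1.27, 0.287, 1.003 and 0.643 with MNA. Every olaparib library exceeded every DMSO library at a level of 7 to 9 counts per DMSO library. Its log2 fold change was 1.54 ± 0.42 (adjusted p = 0.0193) with olaparib and 1.50 ± 0.42 (adjusted p = 0.0256) with MNA. Trim7, first described as a partner of the glycogen primer glycogenin, was read at 1.08, 1.38, 1.11 and 0.984 CPM in the DMSO libraries, 3.11, 3.06, 1.94 and 2.65 with olaparib and 4.57, 1.54, 3.90 and 4.22 with MNA. All treated libraries, MNA replicate 2 included, were above DMSO. It rose by 1.24 ± 0.31 with olaparib (adjusted p = 0.0129) and 1.64 ± 0.31 with MNA (adjusted p = 0.0142) on the log2 scale. Trim16, a member without a RING that takes part in the clearing of damaged lysosomes, was read at 2.06, 1.27, 1.11 and 1.84 CPM in the DMSO libraries, 4.03, 2.95, 3.58 and 5.09 with olaparib and 5.35, 1.58, 3.44 and 4.83 with MNA. Olaparib separated it from DMSO, and MNA did so in all but replicate 2. The values were 1.32 ± 0.35 (adjusted p = 0.0164) and 1.28 ± 0.35 (adjusted p = 0.0239). Trim11 was the mildest of the genes called up with olaparib, at 36.1, 43.2, 43.2 and 40.4 CPM in the DMSO libraries, 49.0, 51.4, 44.5 and 49.6 with olaparib and 43.9, 41.6, 44.1 and 43.6 with MNA. Its olaparib libraries did not overlap with DMSO, with a log2 fold change of 0.25 ± 0.07 (adjusted p = 0.0192), while that with MNA was 0.09 ± 0.07 (adjusted p = 0.342).

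**Figure D3:**
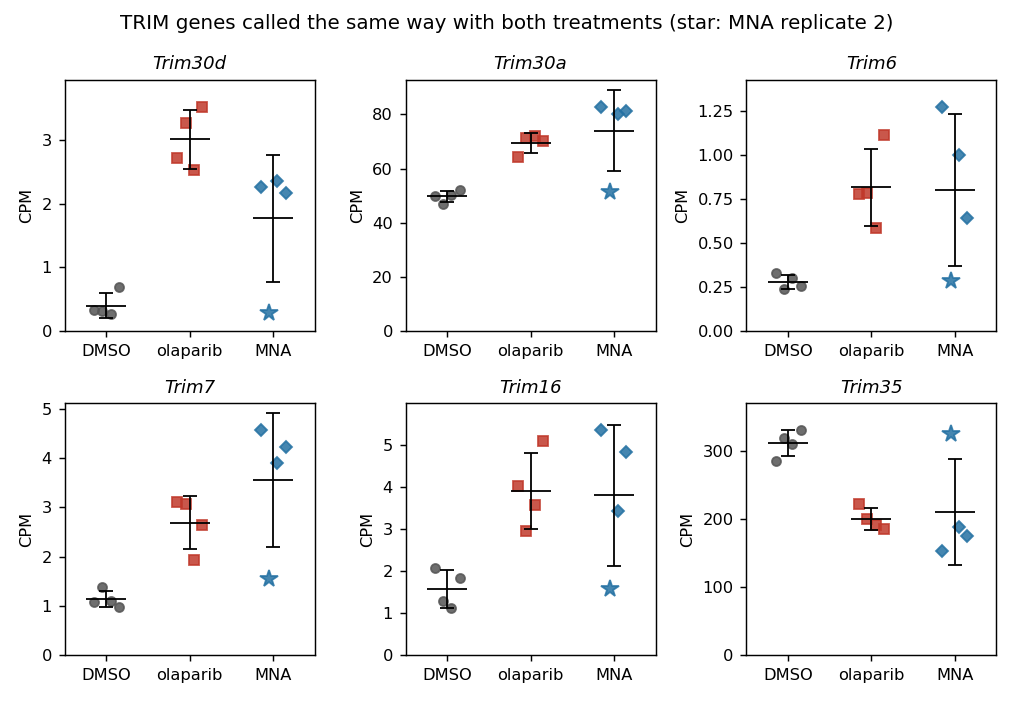
CPM per library of Trim30d, Trim30a, Trim6, Trim7, Trim16 and Trim35, each called in the same direction against the shared DMSO libraries by olaparib and by MNA; bars are the mean and SD of 4 libraries and the star is MNA replicate 2. For Trim30d that library stands at 0.287 CPM while the other MNA libraries reach 2.17 to 2.35.

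Among the genes that fell with olaparib were members of the nuclear PHD-bromodomain class. Trim28 (also KAP1), the corepressor that KRAB zinc finger proteins recruit to silence endogenous retroviruses, was read at 151, 158, 147 and 157 CPM in the DMSO libraries, 126, 119, 122 and 120.4 with olaparib and 162, 156, 153 and 154 with MNA. The olaparib libraries formed a tight group below all others, and the DMSO and MNA libraries overlapped. Trim28 had the smallest p of the family with olaparib, at -0.33 ± 0.05 (adjusted p = 0.000853), and its MNA value was 0.03 ± 0.05 (adjusted p = 0.685). Trim33 (TIF1γ), a ligase for SMAD4, was read at 44.9, 45.9, 45.5 and 43.8 CPM in the DMSO libraries, 37.5, 42.8, 40.2 and 37.3 with olaparib and 49.6, 49.2, 43.3 and 46.6 with MNA. Its olaparib libraries were all below DMSO, at -0.19 ± 0.06 (adjusted p = 0.0428), and the value with MNA was 0.07 ± 0.06 (adjusted p = 0.427). Trim24, the third of the class and a cofactor of nuclear receptors, did not pass, at 11.4, 12.2, 10.7 and 11.7 CPM in the DMSO libraries, 10.6, 10.1, 11.1 and 10.0 with olaparib and 12.6, 10.1, 11.5 and 9.53 with MNA. The groups overlapped, and its log2 fold change was -0.14 ± 0.10 (adjusted p = 0.308) with olaparib and -0.07 ± 0.10 (adjusted p = 0.587) with MNA.

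The other genes lowered by olaparib came from several classes. Trim27, the ret finger protein, was read at 42.5, 46.1, 43.3 and 46.5 CPM in the DMSO libraries, 38.9, 39.0, 38.5 and 37.1 with olaparib and 53.9, 45.9, 51.9 and 53.5 with MNA. Its 3 groups were ordered with olaparib lowest, and MNA replicate 2 lay inside the DMSO range. Trim27 was called down with olaparib, at -0.22 ± 0.06 (adjusted p = 0.0237), and up with MNA, at 0.20 ± 0.06 (adjusted p = 0.0342). Trim32, an NHL member mutated in a limb-girdle muscular dystrophy, was read at 18.9, 21.02, 22.3 and 23.6 CPM in the DMSO libraries, 17.4, 16.3, 17.6 and 18.1 with olaparib and 20.3, 21.2, 23.1 and 20.99 with MNA. Only the olaparib libraries stood apart, below the rest. The changes were -0.31 ± 0.08 (adjusted p = 0.015) with olaparib and -0.00 ± 0.08 (adjusted p = 0.972) with MNA. Trim46, known for ordering microtubules at the start of the axon, was low, at 3.61, 4.03, 2.75 and 3.46 CPM in the DMSO libraries, 1.98, 1.26, 0.925 and 1.22 with olaparib and 1.89, 3.65, 1.89 and 1.77 with MNA. Olaparib took it below all DMSO libraries, and MNA replicates 1, 3 and 4 lay below them too. It fell by 1.35 ± 0.29 on the log2 scale with olaparib (adjusted p = 0.00603), and its MNA value of -0.58 ± 0.28 (adjusted p = 0.122) became -0.90 (adjusted p = 0.00564) without replicate 2. Of the exon bases of Trim46 6.30% lie opposite exons of Krtcap2, a gene with a mean of 1120 counts, and the strand counted is not known.

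Trim35, the most abundant member, was read at 285, 319, 311 and 331 CPM in the DMSO libraries, 222, 200.4, 191 and 185 with olaparib and 153, 326, 189 and 176 with MNA. Olaparib lowered every library below DMSO, and MNA did the same in replicates 1, 3 and 4 but not in replicate 2. The log2 fold change was -0.64 ± 0.19 (adjusted p = 0.0256) with olaparib and -0.56 ± 0.19 (adjusted p = 0.0421) with MNA, the latter -0.85 (adjusted p = 1.68e-06) without replicate 2. Trim44, which lacks a RING and carries a zinc finger of the deubiquitinase type, was read at 108, 114, 125 and 120.4 CPM in the DMSO libraries, 94.5, 102, 98.4 and 88.0 with olaparib and 102, 127, 104 and 99.8 with MNA. Its olaparib libraries were below all DMSO libraries, at -0.29 ± 0.08 (adjusted p = 0.025). With MNA the value was -0.11 ± 0.08 (adjusted p = 0.31), and -0.20 (adjusted p = 0.0196) without replicate 2.

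Leaving out 1 library at a time kept 6 of the 13 olaparib calls in all 12 fits, those of Trim28, Trim30a, Trim30d, Trim32, Trim46 and Trim7. The 6 calls up became 3 without olaparib replicate 4, and the 7 calls down became 3 without DMSO replicate 2, DMSO replicate 4 or olaparib replicate 4 and 4 without DMSO replicate 3. Blocking on the replicate number, which treats same-numbered libraries as pairs although the labels do not tie them, added Trim25 to the genes called down (adjusted p = 0.0492 against 0.0778).

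MNA raised 16 TRIM genes and lowered 4. Beyond the genes already described, those called up were Trim26, Trim12c, Trim62, Trim3, Trim21, Trim36, Trim14, Trim59, Trim45 and Trim30c, and those called down besides Trim35 were Trim47, Trim25 and Trim29. The calls up were 42.1% of the members, against 16.3% of all tested genes, and the calls down 10.5%, against 12.3%. Trim6 and Trim30c, both called up, reached the mean of 10 counts only through treated libraries. Their DMSO libraries held 7 to 9 and 6 to 10 counts, so the rule that chose the members favoured these calls. Trim66, with 5 to 18 counts per DMSO library and 5 to 8 with MNA, was left out by the same rule. The median log2 fold change was 0.15 over the members and 0.00 over all genes. With all 4 MNA libraries the groups did not overlap for 2 members that were higher and 2 that were lower (6.24% and 6.12% of all genes). Without MNA replicate 2 these became 17 and 8 (27.2% and 26.9%), and 17 members were called up and 8 down, again 27.2% and 26.9% of all genes. All 20 of the members called with 4 MNA libraries were also called without replicate 2, and Trim56 was added to the genes called up and Trim2, Trim8, Trim44 and Trim46 to those called down.

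Several members with a place in nucleic acid sensing were among them. Trim21, the cytosolic antibody receptor, was read at 13.5, 14.2, 16.0 and 15.7 CPM in the DMSO libraries, 16.1, 17.5, 19.2 and 19.1 with olaparib and 20.5, 15.2, 29.3 and 27.8 with MNA. MNA replicates 1, 3 and 4 stood above every DMSO library, and all olaparib libraries were above DMSO by a smaller margin. Its log2 fold change was 0.64 ± 0.17 (adjusted p = 0.0224) with MNA and 0.28 ± 0.17 (adjusted p = 0.244) with olaparib. Trim26, which acts on the kinase TBK1 and on the transcription factor IRF3, was read at 42.8, 40.8, 42.2 and 44.5 CPM in the DMSO libraries, 47.3, 47.7, 44.6 and 48.0 with olaparib and 65.5, 44.0, 70.1 and 70.3 with MNA. The same 3 MNA libraries were far above DMSO while olaparib barely cleared it. The values were 0.55 ± 0.12 (adjusted p = 0.0152) and 0.14 ± 0.12 (adjusted p = 0.406). Trim12c, a mouse relative of the human restriction factor TRIM5 that works with TRAF6, was read at 39.0, 37.3, 39.4 and 37.7 CPM in the DMSO libraries, 37.8, 38.9, 41.0 and 39.6 with olaparib and 55.9, 39.2, 63.3 and 62.1 with MNA. Olaparib and DMSO overlapped and MNA replicates 1, 3 and 4 did not, for a change of 0.52 ± 0.12 (adjusted p = 0.0163) with MNA and 0.04 ± 0.12 (adjusted p = 0.844) with olaparib. Of the 31-base words in its transcripts, 47.7% also occur in another gene, 38.7% in Trim5, which had at most 1 count in a library, and its value is uncertain for that reason.

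Trim14, an adaptor of the RNA and DNA sensing pathways without a RING, was read at 23.7, 20.7, 21.9 and 21.7 CPM in the DMSO libraries, 26.1, 28.8, 32.3 and 28.5 with olaparib and 34.9, 20.2, 33.7 and 35.3 with MNA. Its olaparib libraries and MNA replicates 1, 3 and 4 were above DMSO, and MNA replicate 2 was below. It passed with MNA, at 0.49 ± 0.15 (adjusted p = 0.0314), and not with olaparib, at 0.39 ± 0.15 (adjusted p = 0.0675), where the value without MNA replicate 2 was 0.39 (adjusted p = 0.000554). Of its exon bases 31.3% lie opposite exons of Nans, a gene with a mean of 2312 counts, and which strand the counting used is not given in the sources used here. Trim25, the RIG-I ligase, was read at 212, 213, 219.6 and 209.9 CPM in the DMSO libraries, 172, 191, 202 and 169.5 with olaparib and 159, 207, 171 and 160.4 with MNA. Every treated library was below every DMSO library, with MNA replicate 2 the closest. The log2 fold change was -0.30 ± 0.09 (adjusted p = 0.0296) with MNA and -0.22 ± 0.09 (adjusted p = 0.0778) with olaparib. Trim56, which adds ubiquitin to STING, was read at 54.8, 64.2, 67.3 and 61.3 CPM in the DMSO libraries, 50.8, 55.1, 56.9 and 49.6 with olaparib and 62.8, 60.5, 81.3 and 78.5 with MNA. It overlapped with DMSO under each treatment, at -0.22 ± 0.10 (adjusted p = 0.124) with olaparib and 0.19 ± 0.10 (adjusted p = 0.163) with MNA.

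Trim13, Trim65 and Trim8 also act in sensing pathways and were not called. Trim13, a ligase of the endoplasmic reticulum that restrains the RNA sensor MDA5, was read at 7.36, 6.88, 6.60 and 6.54 CPM in the DMSO libraries, 6.78, 6.72, 7.15 and 7.28 with olaparib and 5.80, 7.38, 7.49 and 7.28 with MNA. Trim65, which activates MDA5, was read at 15.6, 12.6, 11.96 and 15.5 CPM in the DMSO libraries, 14.9, 15.5, 14.1 and 14.1 with olaparib and 16.7, 13.0, 14.9 and 16.4 with MNA. Trim8, a positive regulator of the kinase TAK1, was read at 107, 115, 102 and 107 CPM in the DMSO libraries, 101, 105, 100.3 and 89.6 with olaparib and 87.5, 113, 94.9 and 91.2 with MNA. None of these 3 genes passed against DMSO, and their groups overlapped, although MNA replicates 1, 3 and 4 of Trim8 lay below all DMSO libraries. Of the 31-base words of Trim13, 28.7% also occur in Gm9359, so its value is uncertain. For Trim13 the log2 fold change was 0.03 ± 0.11 (adjusted p = 0.852) with olaparib and 0.03 ± 0.11 (adjusted p = 0.84) with MNA. For Trim65 it was 0.07 ± 0.11 (adjusted p = 0.638) and 0.14 ± 0.11 (adjusted p = 0.356). For Trim8 it was -0.12 ± 0.08 (adjusted p = 0.299) and -0.16 ± 0.08 (adjusted p = 0.162), the latter -0.24 (adjusted p = 0.00653) without replicate 2.

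Trim62, a ligase of the fungal-sensing adaptor CARD9, was read at 6.14, 7.60, 5.39 and 7.81 CPM in the DMSO libraries, 6.04, 6.21, 6.60 and 6.83 with olaparib and 14.4, 6.55, 14.5 and 12.9 with MNA. MNA replicates 1, 3 and 4 stood above every other library, for a log2 fold change of 0.84 ± 0.22 (adjusted p = 0.021). Trim3, an NHL member, was read at 41.3, 43.0, 38.03 and 44.6 CPM in the DMSO libraries, 42.9, 43.6, 43.2 and 44.6 with olaparib and 55.9, 43.0, 54.0 and 56.5 with MNA. It followed the same pattern on a smaller scale, at 0.33 ± 0.08 (adjusted p = 0.0214). The other genes called up with MNA were Trim30c (1.80 ± 0.60, adjusted p = 0.0426), with a mean of 13.7 counts over the libraries, Trim59 (0.73 ± 0.22, adjusted p = 0.0325), Trim45 (0.70 ± 0.23, adjusted p = 0.042) and Trim36 (0.67 ± 0.19, adjusted p = 0.028). None of these 6 passed with olaparib, where their values ran from -0.14 for Trim30c to 0.37 for Trim45.

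The fall with MNA was steepest in Trim29, a member without a RING that is known in airway macrophages for the degradation of the NF-κB regulator NEMO. It was read at 10.1, 13.0, 14.0 and 9.71 CPM in the DMSO libraries, 16.5, 20.4, 31.8 and 18.0 with olaparib and 0.288, 7.70, 0.849 and 0.201 with MNA. MNA replicates 1, 3 and 4 held under 1 CPM where every other library held at least 7, and replicate 2 was itself below all DMSO libraries. All olaparib libraries were above all DMSO libraries. The log2 fold change was -2.34 ± 0.76 (adjusted p = 0.0388) with MNA and 0.88 ± 0.69 (adjusted p = 0.354) with olaparib, and without MNA replicate 2 these were -4.69 (adjusted p = 2.44e-07) and 0.88 (adjusted p = 0.00519). Trim47 was read at 18.0, 22.3, 18.0 and 24.0 CPM in the DMSO libraries, 20.6, 24.1, 21.9 and 20.9 with olaparib and 9.13, 19.3, 10.2 and 10.1 with MNA. It was lower in MNA replicates 1, 3 and 4 than in any other library, at -0.75 ± 0.21 (adjusted p = 0.0246), and olaparib and DMSO overlapped, at 0.09 ± 0.20 (adjusted p = 0.773). Trim47 shares 8.23% of its exon bases with Trim65 on the same strand.

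The MNA calls depended on the libraries in the fit. With 1 library left out at a time, only Trim7 of the 20 kept its call in all 12, and the 16 calls up became 6, 5 and 9 without DMSO replicates 2, 3 and 4, 5 without MNA replicate 1, and 1 without MNA replicate 3 or MNA replicate 4. The 4 calls down became 0 without DMSO replicate 2, DMSO replicate 4 or MNA replicates 1, 3 or 4, 1 without DMSO replicate 1 or DMSO replicate 3, and 2 when any olaparib library was left out. Fitted to the MNA and DMSO libraries alone, edgeR called 0 members (19 of the 37 tested at an unadjusted p under 0.05, lowest adjusted p = 0.064), while DESeq2 on all libraries called 16 up and 3 down.

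Set directly against each other, olaparib left 10 TRIM genes lower than MNA and 2 higher. The lower genes were Trim28, Trim27, Trim62, Trim12c, Trim33, Trim56, Trim32, Trim26, Trim30c and Trim3, and the higher ones Trim29 and Trim47. The lower genes were 26.3% of the members, against 10.9% of all tested genes, and the higher ones 5.26%, also against 10.9%. Trim30c, among the lower genes, reached the mean of 10 counts that made it a member only through the MNA libraries. The groups did not overlap for 5 members that were lower and 4 that were higher with olaparib (9.69% and 11.5% of all genes). The median log2 difference was -0.10 over the members and -0.01 over all genes. Without MNA replicate 2 the 10 lower genes became 16 (20.7% of all genes) and the higher ones were again 2 (21.5%), with all 12 calls held and Trim14, Trim21, Trim30a, Trim36, Trim59 and Trim7 added.

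**Figure D4:**
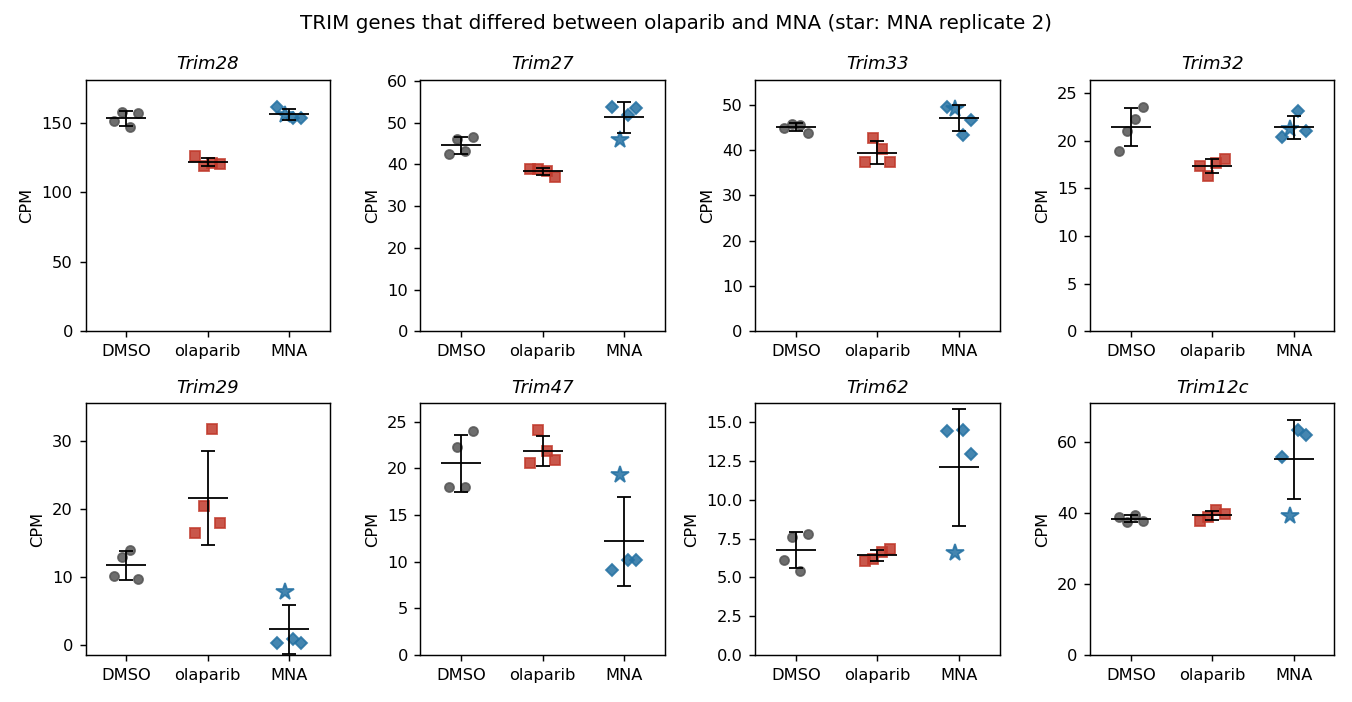
CPM per library of Trim28, Trim27, Trim33, Trim32, Trim29, Trim47, Trim62 and Trim12c, 8 of the 12 TRIM genes called between olaparib and MNA, with the mean and SD of 4 libraries and MNA replicate 2 as a star. In the upper row the olaparib libraries lie below the others, and in the lower row MNA replicates 1, 3 and 4 stand apart.

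The values given above show these differences in 2 forms. In Trim28, Trim33 and Trim32 the olaparib libraries were below both DMSO and MNA, with log2 differences from MNA of -0.36 ± 0.05 (adjusted p = 0.000401), -0.26 ± 0.06 (adjusted p = 0.0138) and -0.30 ± 0.08 (adjusted p = 0.0181). In Trim62, Trim12c, Trim26 and Trim3 olaparib lay with or just above DMSO and MNA replicates 1, 3 and 4 above both, with differences of -0.91 ± 0.22 (adjusted p = 0.0122), -0.49 ± 0.12 (adjusted p = 0.0136), -0.41 ± 0.12 (adjusted p = 0.0295) and -0.26 ± 0.08 (adjusted p = 0.0439). Trim27 stood on opposite sides of DMSO, at -0.42 ± 0.06 (adjusted p = 0.000806). Trim56 differed between the treatments, at -0.41 ± 0.10 (adjusted p = 0.0144), although neither treatment passed against DMSO. Trim29 and Trim47 were higher with olaparib, by 3.23 ± 0.77 (adjusted p = 0.012) and 0.84 ± 0.21 (adjusted p = 0.0141). Trim30c, with few counts, was lower by 1.93 (SE 0.61, adjusted p = 0.0404). For Trim30d the difference was 0.77 ± 0.46 (adjusted p = 0.262), which does not show that the compounds raised it alike.

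The calls of Trim12c, Trim27, Trim28, Trim29, Trim33, Trim47, Trim56 and Trim62 held whichever library was left out, and the 10 lower genes became 6 without olaparib replicate 2. DESeq2 gave no adjusted p for Trim29 in any comparison, so DESeq2 counted 1 higher gene.

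By class, the 21 members with a SPRY domain and no COS box held all 6 genes called up with olaparib and 12 of the 16 called up with MNA, with 2 and 3 called down. Of the 3 PHD-bromodomain members 2 fell with olaparib and 0 were called with MNA. Of the 3 NHL members 1 fell with olaparib and 1 rose with MNA. Members not called against DMSO numbered 25 with olaparib, with log2 fold changes from -0.22 (Trim56) to 0.88 (Trim29) and 16 of them above 0, and 18 with MNA, from -0.58 (Trim46) to 0.19 (Trim56) and 10 above 0. Neither treatment called Trim13, Trim2, Trim23, Trim24, Trim34a, Trim37, Trim39, Trim41, Trim56, Trim65, Trim68 or Trim8. Between olaparib and MNA 26 members were not called, from -0.77 (Trim46) to 0.77 (Trim30d). Trim34a, in the chromosome 7 cluster, shares 48.7% of its 31-base words with Trim34b, and its value is uncertain for that reason.

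Genes of the pathways around these ligases were counted in the same fits, with olaparib and MNA again set against the same DMSO libraries, where 14.3% of all tested genes were called up and 12.8% down with olaparib and 16.3% and 12.3% with MNA. Of 25 interferon-induced genes tested, 16 were called up and 0 down with olaparib (median log2 fold change 0.89), with the smallest p in Oasl2 (1.84 ± 0.23, adjusted p = 0.000309) and Xaf1 (0.80 ± 0.11, adjusted p = 0.000775). With MNA 11 were called up and 1 down (median 0.53), with Ifit2 at 2.49 ± 0.48 and Ifit3 at 2.19 ± 0.42 (adjusted p = 0.0142 each), and Oas1a, which makes the activator of RNase L, fell by 0.74 on the log2 scale (adjusted p = 0.0182). Of 23 genes of RNA and DNA sensing, 8 rose and 3 fell with olaparib (median 0.18). Among them were Ddx58, which encodes the TRIM25 substrate RIG-I, at 1.09 ± 0.20 (adjusted p = 0.00281), Irf7 at 1.47 ± 0.26 (adjusted p = 0.00232) and the TRIM30 substrate gene Tab2 at -0.37 ± 0.07 (adjusted p = 0.00439). With MNA 7 rose and 2 fell (median 0.17), including Tmem173, which encodes STING, at 0.67 ± 0.16 (adjusted p = 0.0168), and Traf3 at -0.25 ± 0.08 (adjusted p = 0.0467). Without MNA replicate 2, where 22.5% and 21.2% of all genes were called with olaparib and 27.2% and 26.9% with MNA, the interferon-induced genes gave 24 calls up with olaparib and 16 up and 3 down with MNA, and the sensing genes 12 up and 3 down with olaparib and 12 up and 4 down with MNA.

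The 32 ubiquitin E1 and E2 enzymes gave 4 calls up and 3 down with olaparib (median -0.01; 14.3% and 12.8% of all genes). With MNA they gave 5 up and 1 down (median -0.03; 16.3% and 12.3% of all genes). Without MNA replicate 2 they gave 7 up and 8 down with olaparib (22.5% and 21.2% of all genes). With MNA these were then 8 up and 11 down (27.2% and 26.9%). With all libraries no share exceeded that of all genes, while without replicate 2 the calls down did and the calls up did not. Uba7, the activating enzyme of the ubiquitin-like protein ISG15, had the smallest p of those that rose with MNA, at 0.54 ± 0.13 (adjusted p = 0.0192). Of 14 partners of TRIM24, TRIM28 and TRIM33, 1 rose and 3 fell with olaparib (median 0.01; 1 and 4 without MNA replicate 2), among them Smad4, a TRIM33 substrate, at -0.37 ± 0.07 (adjusted p = 0.00342) and Trp53, a TRIM24 substrate, at -0.26 ± 0.07 (adjusted p = 0.0145). With MNA 2 rose and 3 fell (median -0.09; 4 and 6 without MNA replicate 2), with Cbx5, the heterochromatin protein HP1α that binds TRIM28, at 0.51 ± 0.11 (adjusted p = 0.0151). Of the TRIM proteins named otherwise, 3 were tested: Mid1 fell with olaparib (-1.12 ± 0.34, adjusted p = 0.0309), Pml, the scaffold of nuclear bodies, rose with MNA (1.97 ± 0.36, adjusted p = 0.0142), and Mefv passed with neither. Without MNA replicate 2 these 3 gave 1 call up and 1 down with olaparib and 1 up with MNA. Median fold changes over all tested genes were 0.00 in each comparison with DMSO.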

How the data were processed

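RNA was isolated after 6 days of culture, libraries were made with a stranded mRNA kit and sequenced as single-end reads, and the authors aligned them with STAR 2.5.2b to GRCm38. The deposited values are whole-number counts of reads per Ensembl gene, not normalised, 1 file per library. Which of STAR's strand columns they hold is not given in the sources used here, so a gene and an overlapping antisense gene may share reads. The members and gene lists were chosen with earlier results of these data known.

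Identifiers were named from GENCODE M21 (34490 of 35275 matched), whose exon lengths gave CPM per kb. Genes passing filterByExpr were scaled by TMM and fitted in edgeR 4.0.16 (R 4.3.3, limma 3.58.1) with its quasi-likelihood test on all 12 libraries and no block, p-values were adjusted by Benjamini-Hochberg over all 12849 genes, and SE was the log2 fold change over the root of F. The fit was tested on simulated data, with 200 of 12849 genes changed between olaparib and DMSO. It recovered 174 of these beside 8 false calls. No simulated library stood apart as MNA replicate 2 does, so the simulation does not bear on the MNA calls. DESeq2 1.42.0, other normalisations and filters, 2-group fits, a replicate block and each library left out were the alternatives. Same-numbered olaparib and DMSO libraries deviated together (r = 0.227, 0.172, 0.225 and 0.408 for replicates 1 to 4). Libraries of different numbers were not compared, so these values do not establish a pairing, and the block is given only as an alternative.

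Members were described by library if among the 10 called with the smallest p in a comparison or in a chosen set with known roles in sensing or repression, and the others by fold change, count or range. Shared sequence is the share of 31-base words of a gene's transcripts found in another gene. Promoters are RefSeq's for GRCm38.p6. No protein sequence was used here. The depth of 21146291 to 31446849 counts leaves about 7 to 9 counts in each DMSO library for the least expressed member.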

Additional observations from a re-analysis of the deposited data

Results flagged for a closer look

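In groups of 4 libraries, the highest or lowest library was set against the rest by Dixon's test over the 38 members and 3 groups, and 9 of 114 groups had a library apart, where chance flags about 1 in 20. Of these 8 were MNA groups, 7 of them because of replicate 2, 1 was a DMSO group and 0 were olaparib groups. MNA replicate 2 was the lowest for Trim14 (20.2 CPM, the others 33.7 to 35.3), Trim30a (51.5, the others 80.2 to 82.9) and Trim30d (0.287, the others 2.17 to 2.35). It was the highest for Trim29 (7.70 CPM, the others 0.201 to 0.849), Trim44 (127, the others 99.8 to 104), Trim46 (3.65, the others 1.77 to 1.89) and Trim47 (19.3, the others 9.13 to 10.2). MNA replicate 1 was low for Trim13, at 5.80 CPM against 7.28 to 7.49. DMSO replicate 4 was high for Trim30d, at 0.698 CPM against 0.268 to 0.328.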

How the results depend on the processing

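Across the alternatives, values of called members kept direction and call in 693 cases, kept the direction but lost the call in 242 and changed sign in 0. With the replicate block and without MNA replicate 2 together, the calls were 10 up and 9 down with olaparib, 17 and 8 with MNA, and 4 and 16 for olaparib against MNA. With 2 groups alone they were 10 and 9, 0 and 0 (MNA), and 2 and 7. At an adjusted p under 0.01 they were 1 and 2, 0 and 0 (lowest adjusted p = 0.0142, with 20 members at an unadjusted p under 0.05), and 0 and 2. DESeq2 gave 1 higher gene for olaparib against MNA. With 1 library left out the calls ran from 3 to 9 up and 3 to 9 down with olaparib, from 1 to 17 up and 0 to 8 down with MNA, and from 6 to 16 lower with olaparib than MNA.

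The values against DMSO given for members not called were also followed across the alternatives, each gene in each alternative being 1 case. They changed sign in 14 cases, kept direction without a call in 564 and gained a call in 27. The changes of sign came from Trim13 and Trim32 with MNA and Trim30c and Trim62 with olaparib. Trim13 with MNA was -0.0058 under the block without MNA replicate 2, and -0.0009 to 0.1103 with 1 library left out. Trim32 with MNA was 0.0092 with upper quartile scaling, 0.0029 at a mean of at least 50 counts, 0.0059 with 2 groups alone and -0.0608 to 0.0427 with 1 library left out. With olaparib, Trim30c ran from -0.652 to 0.2115 and Trim62 from -0.166 to 0.0067. Between olaparib and MNA, among members not called, Trim35 moved from -0.08 to 0.21, Trim16 from 0.05 to -0.21 and Trim6 from 0.04 to -0.24 without MNA replicate 2, and the near-0 values of Trim13 and Trim34a changed sign under the replicate block. The cause was not tested.

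The replicate block gave 6 up and 8 down with olaparib, with Trim25 added. With MNA it gave 14 and 4, losing Trim27 (adjusted p = 0.0506) and Trim45 (adjusted p = 0.0597), and between the treatments 2 and 10, gaining Trim36 (adjusted p = 0.0402) and losing Trim3 (adjusted p = 0.0541), and it changed no other call. Same-numbered libraries did not all deviate together there (r from -0.00938 to 0.277 for MNA and DMSO, 0.0696 to 0.392 for olaparib and MNA). Below about 20 counts per library, as in Trim6, Trim30c and DMSO replicates 1 to 3 of Trim30d, counting error limits what can be seen.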
